A study of Mus musculus with 12 samples.

Results

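The Toll-like receptors were followed in the whole colon of 12 mice through 10 receptor genes, Tlr1 to Tlr9 and Tlr13. The genes were taken by symbol from a table of 54532 genes, and all 10 were found. All 10 also passed the filter on low values, 0.1 FPKM (fragments scaled by transcript length and library size) or more in 3 or more libraries, as did 24102 genes in all. Every mouse carried a floxed Tmem173, the gene of the DNA-sensing adaptor STING, on the C57BL/6N background and received 5 injections of tamoxifen. Tmem173fl/fl mice, which the labels call WT, had no Cre recombinase. Tmem173iΔmye mice, which the labels call CRE, carried in addition Lyz2-Creert2, a tamoxifen-inducible Cre driven from the Lyz2 locus and so active in myeloid cells, while other cells of the colon kept Tmem173. In each genotype 3 mice drank water and 3 drank dextran sodium sulfate (DSS), which injures the colonic epithelium, for 7 days. Mice of the acute colitis model were 6 to 8 weeks old according to the methods. Each library came from 1 mouse.

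Toll-like receptors are membrane receptors of innate immunity that recognise conserved microbial molecules. One group sits on the cell surface: TLR2 pairs with TLR1 or TLR6 to bind bacterial lipoproteins, TLR4 binds lipopolysaccharide together with MD-2, and TLR5 binds flagellin. The other group sits in endosomes and reads nucleic acids: TLR3 binds double-stranded RNA, TLR7 and TLR8 bind single-stranded RNA or its breakdown products, TLR9 binds unmethylated CpG DNA, and TLR13, present in mice and absent in humans, binds bacterial ribosomal RNA. All of them except TLR3 signal through the adaptor MyD88, TLR3 signals through TRIF, and TLR4 uses both. In the colon they are expressed by macrophages, dendritic cells, B cells and stromal cells, and in part by the epithelium itself, which faces the microbiota.

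The 8 receptors other than Tlr4 and Tlr7 were matched by symbol to 10 RefSeq promoters on GRCm38.p6, and the 250 bases before each start were searched on both strands. The letters searched were GAAA and GAAA with any 2 bases between them (core of the interferon-stimulated response element), TGANTCA (AP-1), TTGCNNAA (C/EBP), GAGGAAGT (PU.1) and the kappaB consensus. The promoters printed here belong to Tlr1 and Tlr2, the partners of a lipoprotein receptor whose transcripts moved in opposite directions with DSS in Tmem173fl/fl mice, and to Tlr8 and Tlr13, the receptors with the highest fold changes there. They are written 5′ to 3′ on the strand of the gene, cut at the first base annotated as exon, with the matches in capitals. They span chr5:64933564-64933808 for Tlr1, chr3:83841768-83841858 for Tlr2, chrX:167264330-167264579 for Tlr8 and chrX:106143025-106143203 for Tlr13.
Tlr1: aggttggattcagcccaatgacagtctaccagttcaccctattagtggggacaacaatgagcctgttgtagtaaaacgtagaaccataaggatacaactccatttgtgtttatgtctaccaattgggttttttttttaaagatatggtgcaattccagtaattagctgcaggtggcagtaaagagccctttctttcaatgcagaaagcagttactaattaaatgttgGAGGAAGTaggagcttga
Tlr2: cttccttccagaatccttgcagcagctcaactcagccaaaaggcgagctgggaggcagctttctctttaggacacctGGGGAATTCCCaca
Tlr8: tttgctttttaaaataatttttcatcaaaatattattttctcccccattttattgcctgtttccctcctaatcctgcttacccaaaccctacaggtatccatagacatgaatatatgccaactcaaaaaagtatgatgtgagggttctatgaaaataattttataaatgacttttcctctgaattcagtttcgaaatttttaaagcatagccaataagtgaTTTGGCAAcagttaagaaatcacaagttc
Tlr13: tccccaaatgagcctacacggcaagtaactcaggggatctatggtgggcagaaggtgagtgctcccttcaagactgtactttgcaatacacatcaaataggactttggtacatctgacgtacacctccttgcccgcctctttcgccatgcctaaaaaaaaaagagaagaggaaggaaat
The capitals of Tlr1 match the PU.1 letters, from -23 to -16 relative to the start, and 2.44% of 32817 promoters searched over the same length held them. Those of Tlr2 are overlapping matches to the kappaB consensus between -173 and -163, which 7.25% of promoters held. The capitals of Tlr8 match the C/EBP letters on the reverse strand at -29 to -22, found in 9.57% of promoters. None of the letters searched stood in the promoters of Tlr13 and Tlr5 or in the second promoters of Tlr1 and Tlr6. The Tlr3 promoter held kappaB letters at -211 to -202 and C/EBP letters at -95 to -88. One Tlr6 promoter held 2 overlapping matches to the interferon element core, between -116 and -101, which 2.97% of promoters held, and C/EBP letters at -89 to -82. That of Tlr9 held the AP-1 letters at -58 to -52, found in 6.75% of promoters. No matches of different motifs overlapped, and a match of letters is a description of the sequence and not evidence that a factor binds.

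The 12 libraries held between 13823237 and 18718915 counts. Tmem173 itself stood at 14.4 to 24.5 CPM (counts scaled to the library size after TMM normalisation) in untreated Tmem173fl/fl, 14.6 to 21.3 in untreated Tmem173iΔmye, 37.7 to 44.0 in colitic Tmem173fl/fl and 23.8 to 47.8 CPM in colitic Tmem173iΔmye colon. The genotype difference was -0.21 ± 0.22 (log2 fold change ± SE) without DSS and -0.28 ± 0.26 with DSS. Neither passed the edgeR test (adjusted p = 1 and 0.602), so whole colon counts do not check the deletion in myeloid cells. With DSS, Tmem173 rose by 1.07 ± 0.21 in Tmem173fl/fl (edgeR adjusted p = 0.00255) and by 0.95 ± 0.28 in Tmem173iΔmye mice (adjusted p = 0.135). These DSS effects differed by -0.06 ± 0.37 (edgeR adjusted p = 0.968). The paper reports a smaller rise of STING in inflamed colon after myeloid knockout. These counts did not show that decrease, though the SE leaves room for one. Lyz2, the locus that carries the Cre, was lower in every untreated Tmem173iΔmye library, at 94.4, 76.4 and 114.8 CPM against 150, 152 and 277.1 CPM, and this too missed the adjusted threshold (edgeR adjusted p = 1). Libraries differed in sex-linked transcripts: Xist had 20384 to 29356 counts and Ddx3y none in replicate 3 of both untreated groups and in replicate 5 of colitic Tmem173iΔmye, while the other 9 libraries had 3 to 8 Xist counts. Tlr7, Tlr8 and Tlr13 lie on the X chromosome. Pancreatic transcripts summed to between 0 and 8109 CPM.

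Per transcript length, untreated colon held mostly Tlr1 and Tlr3. In untreated Tmem173fl/fl colon the mean level was 29.5 FPKM for Tlr1, 16.6 for Tlr3, 7.24 for Tlr2 and 5.64 for Tlr4, and the remaining 6 receptors stood between 0.578 FPKM for Tlr8 and 1.77 FPKM for Tlr9. The library ranges of Tlr1 and Tlr3 overlapped neither each other nor that of Tlr2, whereas those of Tlr2 and Tlr4 overlapped, as did each pair of neighbours from Tlr9 downwards. Untreated Tmem173iΔmye colon had the same first 4 receptors, at 26.2, 14.3, 7.47 and 5.77 FPKM, followed by Tlr13 and Tlr9. Tlr1 and Tlr3 together made up 65.4% to 72.7% of the summed FPKM of the 10 receptors in the 6 untreated libraries.

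The order was different in colitis. Tlr2 (15.8 FPKM) and Tlr1 (13.99 FPKM) stood first in colitic Tmem173fl/fl colon with overlapping ranges, followed by Tlr4 (7.22), Tlr13 (6.54) and Tlr3 (6.36 FPKM), whose neighbouring ranges overlapped as well. Tlr1 and Tlr3 made up 32.6%, 31.9% and 34.0% of the receptor total there. The receptor total itself moved little in this genotype, from 59.4, 63.8 and 71.8 FPKM without DSS to 63.6, 62.1 and 60.4 FPKM with DSS. In colitic Tmem173iΔmye colon Tlr1 stayed first at 34.1 FPKM, ahead of Tlr2 (16.8), Tlr3 (12.5) and Tlr4 (8.99 FPKM). The share of Tlr1 and Tlr3 was 44.5%, 56.6% and 66.2% in these 3 libraries, each above every colitic Tmem173fl/fl library and 2 of them below every untreated one. Their receptor total was 85.0, 101.2 and 67.4 FPKM, against 57.4, 68.5 and 52.3 FPKM in untreated Tmem173iΔmye colon, with overlapping ranges.

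**Figure D1:**
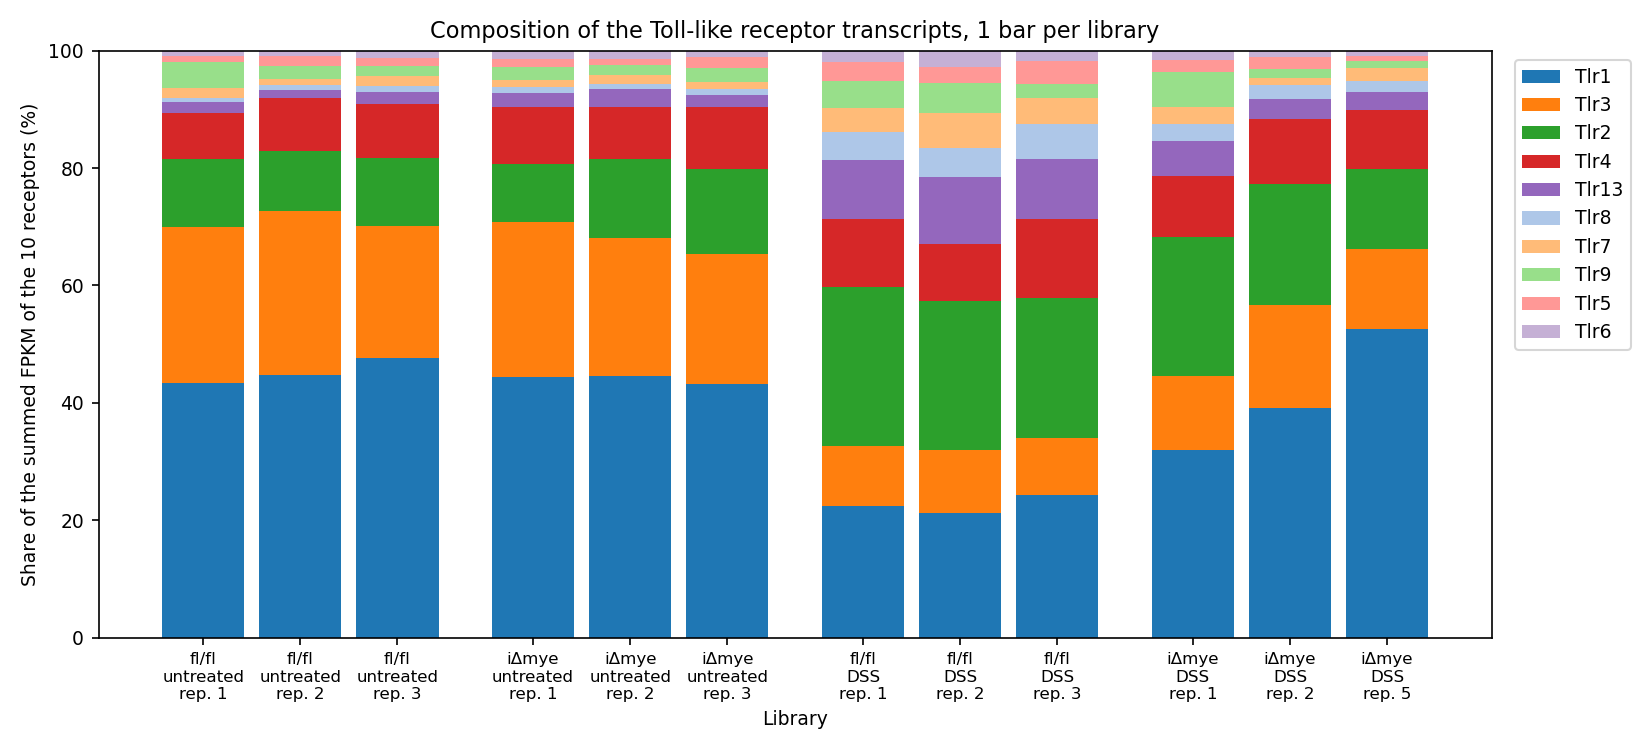
Share of each receptor in the summed FPKM of the 10 receptors (vertical axis, %) in each of the 12 libraries (horizontal axis). Tlr1 and Tlr3, the lowest segments, took 65.4% to 72.7% without DSS, 31.9% to 34.0% in colitic Tmem173fl/fl colon and 44.5% to 66.2% in colitic Tmem173iΔmye colon.

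Colitis in mice with intact STING was addressed first, by comparing DSS with water in Tmem173fl/fl mice. Of the 10 receptors 5 rose (Tlr2, Tlr5, Tlr7, Tlr8 and Tlr13), 2 fell (Tlr1 and Tlr3) and 3 were not called (Tlr4, Tlr6 and Tlr9). A receptor was called at an adjusted p under 0.05 in edgeR's quasi-likelihood test with a log2 fold change of at least 1 in size, a rule under which 22.5% of all genes tested were called, 14.9% higher and 7.61% lower. The median log2 fold change was 1.06 over the 10 receptors and 0.03 over all genes tested. Colitic and untreated libraries did not overlap in 6 receptors that were higher and 2 that were lower, where 23.9% and 25.4% of all genes did so, and 8 receptors and 44.5% of all genes had an unadjusted p under 0.05. Since the RNA came from whole tissue, a change in the number of cells of a type and a change in RNA per cell cannot be told apart.

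**Figure D2:**
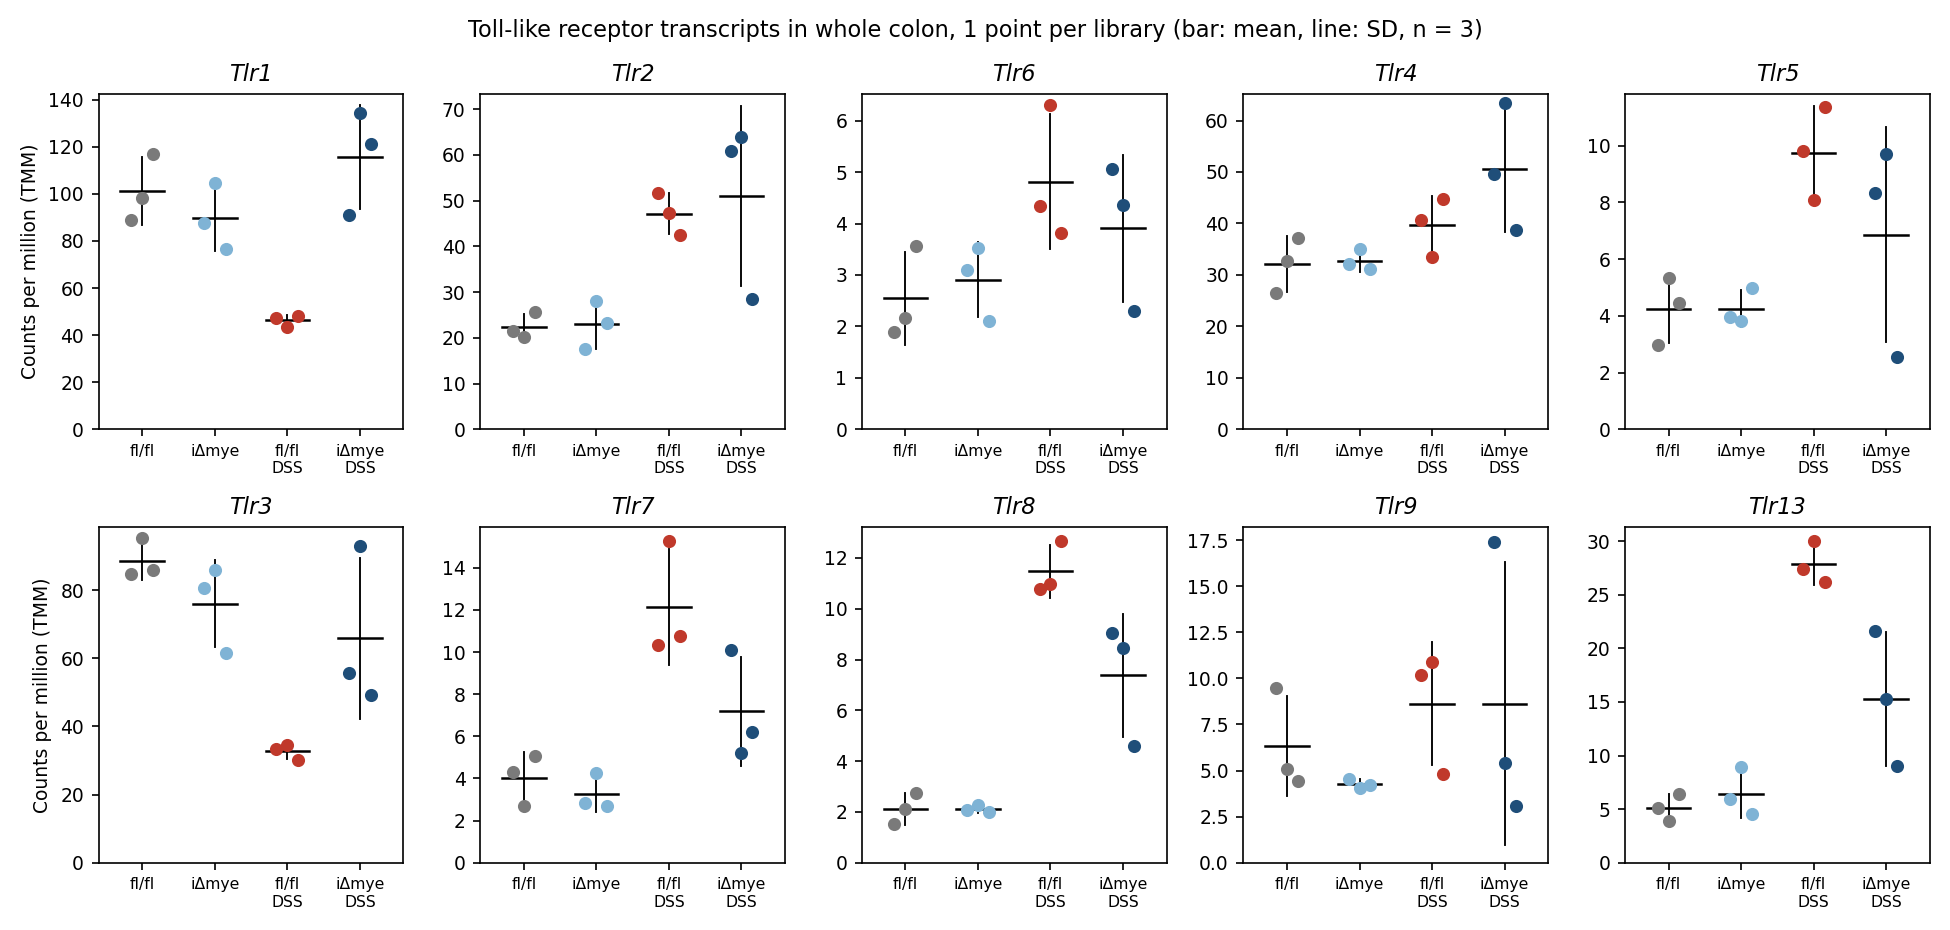
CPM after TMM normalisation (vertical axis, from 0) of each receptor in the 4 groups (horizontal axis), 1 point per library, with the mean as a bar and the SD as a line (n = 3). Colitic Tmem173fl/fl libraries held 26.2 to 30.0 CPM of Tlr13 against 3.86 to 6.39 CPM without DSS, and 43.7 to 48.2 CPM of Tlr1 against 88.7 to 117 CPM.

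Of the lipoprotein receptors, Tlr2 (chr3:83836272-83841767), the subunit shared by both heterodimers, stood at 21.4, 20.2 and 25.6 CPM without DSS and at 51.6, 47.3 and 42.6 CPM with DSS in Tmem173fl/fl mice. Every colitic library was above every untreated one, and Tlr2 rose 2.21-fold (log2 1.14 ± 0.15, edgeR adjusted p = 0.000309). Its partner Tlr1 (chr5:64924679-64933563) went the other way, from 88.7, 98.2 and 117 CPM to 47.1, 43.7 and 48.2 CPM, again without overlap. Tlr1 fell 2.09-fold (log2 -1.06 ± 0.14, edgeR adjusted p = 0.000304). Without replicate 3 of the untreated group, the highest Tlr1 library, the value was -0.93 with an adjusted p of 0.00123, which is under the fold minimum. The other partner, Tlr6 (chr5:64952031-64960097), was sparse, at 1.89, 2.17 and 3.57 CPM without DSS and 4.33, 6.30 and 3.81 CPM with DSS. Its log2 fold change of 0.98 ± 0.34 (edgeR adjusted p = 0.0463) missed the fold minimum, and it became a call at 1.33 without untreated replicate 3 and at 1.11 without colitic replicate 3. Tlr1 and Tlr6 are neighbouring genes with a shared stretch: 15.3% of the 50-base windows and 8.85% of the 100-base windows of the Tlr1 transcript also occur in Tlr6, so the values of these 2 genes are uncertain as far as reads were split between them.

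Tlr6 was also set beside pancreatic transcripts. The libraries with the most Tlr6, colitic Tmem173fl/fl replicates 2 and 1 and colitic Tmem173iΔmye replicates 1 and 2, held 3557, 7074, 8109 and 63.0 CPM of pancreatic markers. Untreated replicate 3 of Tmem173fl/fl, the highest Tlr6 value of its group, held 2494 CPM against 0 and 0.339 CPM in replicates 1 and 2, and replicate 2 of untreated Tmem173iΔmye, likewise the highest of its group, held 1409 CPM. The part of pancreatic tissue in the Tlr6 values was not tested.

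Tlr4 (chr4:66827584-66930284), the receptor for lipopolysaccharide, stood at 26.4, 32.7 and 37.2 CPM without DSS and 40.6, 33.5 and 44.8 CPM with DSS. The groups overlapped, and the log2 fold change of 0.37 ± 0.17 did not pass the edgeR test (adjusted p = 0.124, 95% interval -0.01 to 0.75). Tlr5 (chr1:182954788-182976044), the flagellin receptor, was at 2.95, 5.35 and 4.45 CPM in untreated colon and at 9.81, 8.10 and 11.4 CPM in colitic colon. It rose 2.40-fold (log2 1.26 ± 0.27, edgeR adjusted p = 0.00468) and kept its call without any 1 library, but limma on log2(FPKM + 1) put it at 0.72, under the fold minimum.

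Among the endosomal receptors, Tlr13 (chrX:106143204-106160493) rose 5.67-fold, from 5.15, 3.86 and 6.39 CPM to 27.4, 30.0 and 26.2 CPM (log2 2.50 ± 0.22, edgeR adjusted p = 2.26e-05). Tlr8 (chrX:167242696-167264329) rose 5.61-fold, from 1.52, 2.10 and 2.76 CPM to 10.8, 10.98 and 12.7 CPM (log2 2.49 ± 0.27, edgeR adjusted p = 8.17e-05). Tlr7 (chrX:167304929-167330558), which lies beside Tlr8, rose 3.15-fold, from 4.32, 2.71 and 5.07 CPM to 10.4, 15.3 and 10.8 CPM (log2 1.66 ± 0.29, edgeR adjusted p = 0.00149). In all 3 genes the lowest colitic library was above the highest untreated one. That highest untreated library was replicate 3, the one with Xist reads, and without it the log2 fold changes were 2.71 for Tlr13, 2.74 for Tlr8 and 1.87 for Tlr7.

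Tlr3 (chr8:45395665-45411080) was the endosomal receptor that fell. It stood at 84.8, 95.3 and 86.1 CPM without DSS and at 33.5, 34.5 and 30.3 CPM with DSS, which is 2.58-fold lower (log2 -1.37 ± 0.12, edgeR adjusted p = 2.89e-05). Tlr9 (chr9:106222598-106226883) was at 9.47, 5.08 and 4.45 CPM without DSS and 10.2, 10.9 and 4.83 CPM with DSS. Its groups overlapped (log2 0.53 ± 0.37, edgeR adjusted p = 0.302, 95% interval -0.30 to 1.35).

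In Tmem173iΔmye mice 1 of the 10 receptors, Tlr8, was called with DSS, where 2.08% of all genes tested were called, 1.48% higher and 0.597% lower. At an unadjusted p under 0.05 edgeR gave 5 of the 10 receptors and 15.6% of all genes. Tlr8 rose 3.48-fold, from 2.06, 2.28 and 1.98 CPM to 9.05, 8.46 and 4.61 CPM (log2 1.8 ± 0.36, edgeR adjusted p = 0.0335). Leaving out untreated replicate 1, 2 or 3 gave an adjusted p of 0.200, 0.158 or 0.182, and leaving out colitic replicate 1 or 2 gave 0.0899 or 0.0845, so the call was lost in 5 of 6 leave-outs. These 5 leave-outs called 0.212% to 1.54% of all genes, against 2.08% with all libraries. Without colitic replicate 5, the lowest of its group, the Tlr8 call was kept with an adjusted p of 0.00317, and 6.09% of all genes were called. Over the 6 leave-outs the log2 fold change stayed between 1.63 and 2.08.

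Groups did not overlap for 5 receptors in Tmem173iΔmye mice, all of them higher with DSS. Of all genes tested, 12.1% were higher in this way and 9.41% lower. Besides Tlr8 these were Tlr2, Tlr4, Tlr7 and Tlr13. Tlr2 was at 17.5, 28.2 and 23.3 CPM without DSS and 60.9, 63.9 and 28.4 CPM with DSS (log2 1.15 ± 0.31, edgeR adjusted p = 0.103). Replicate 5, the lowest colitic library for Tlr2, set much of that spread, and without it the log2 fold change was 1.47 (adjusted p = 0.00252). Tlr13 was at 5.95, 8.92 and 4.51 CPM without DSS and 21.6, 15.2 and 9.05 CPM with DSS (log2 1.24 ± 0.38, edgeR adjusted p = 0.139). It too became a call without replicate 5 (log2 1.54, adjusted p = 0.0155). Without that library 6.09% of all genes were called, against 2.08% with all libraries. Tlr7 went from 2.85, 4.25 and 2.71 CPM to 10.1, 5.23 and 6.19 CPM (log2 1.13 ± 0.37, edgeR adjusted p = 0.169). Tlr4 went from 32.0, 35.0 and 31.1 CPM to 49.6, 63.4 and 38.8 CPM (log2 0.63 ± 0.22, edgeR adjusted p = 0.196). Each of these 4 genes thus had a higher value in every colitic library but missed the adjusted threshold.

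The remaining 5 receptors overlapped between colitic and untreated Tmem173iΔmye colon. Tlr1 was at 87.5, 104.7 and 76.8 CPM without DSS and 91.1, 134.5 and 121.4 CPM with DSS (log2 0.36 ± 0.21, edgeR adjusted p = 0.462). Tlr3 was at 80.6, 85.9 and 61.6 CPM and at 55.6, 93.0 and 49.2 CPM (log2 -0.21 ± 0.26, edgeR adjusted p = 0.755). Neither gene went down to the levels of colitic Tmem173fl/fl colon. For Tlr3, colitic replicates 1 and 5 still lay below every untreated library, and the overlap came from replicate 2. Without 1 library its log2 fold change ran from -0.52 to -0.01. Tlr5 ran from 3.94, 3.83 and 4.99 CPM to 8.34, 9.71 and 2.55 CPM, with replicate 5 below every untreated library. Tlr6 was at 3.10, 3.53 and 2.10 CPM without DSS and 5.06, 4.36 and 2.31 CPM with DSS. Tlr9 stood at 4.55, 4.07 and 4.21 CPM without DSS and at 17.4, 5.41 and 3.10 CPM with DSS, so that 1 library, replicate 1, held most of it.

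**Figure D3:**
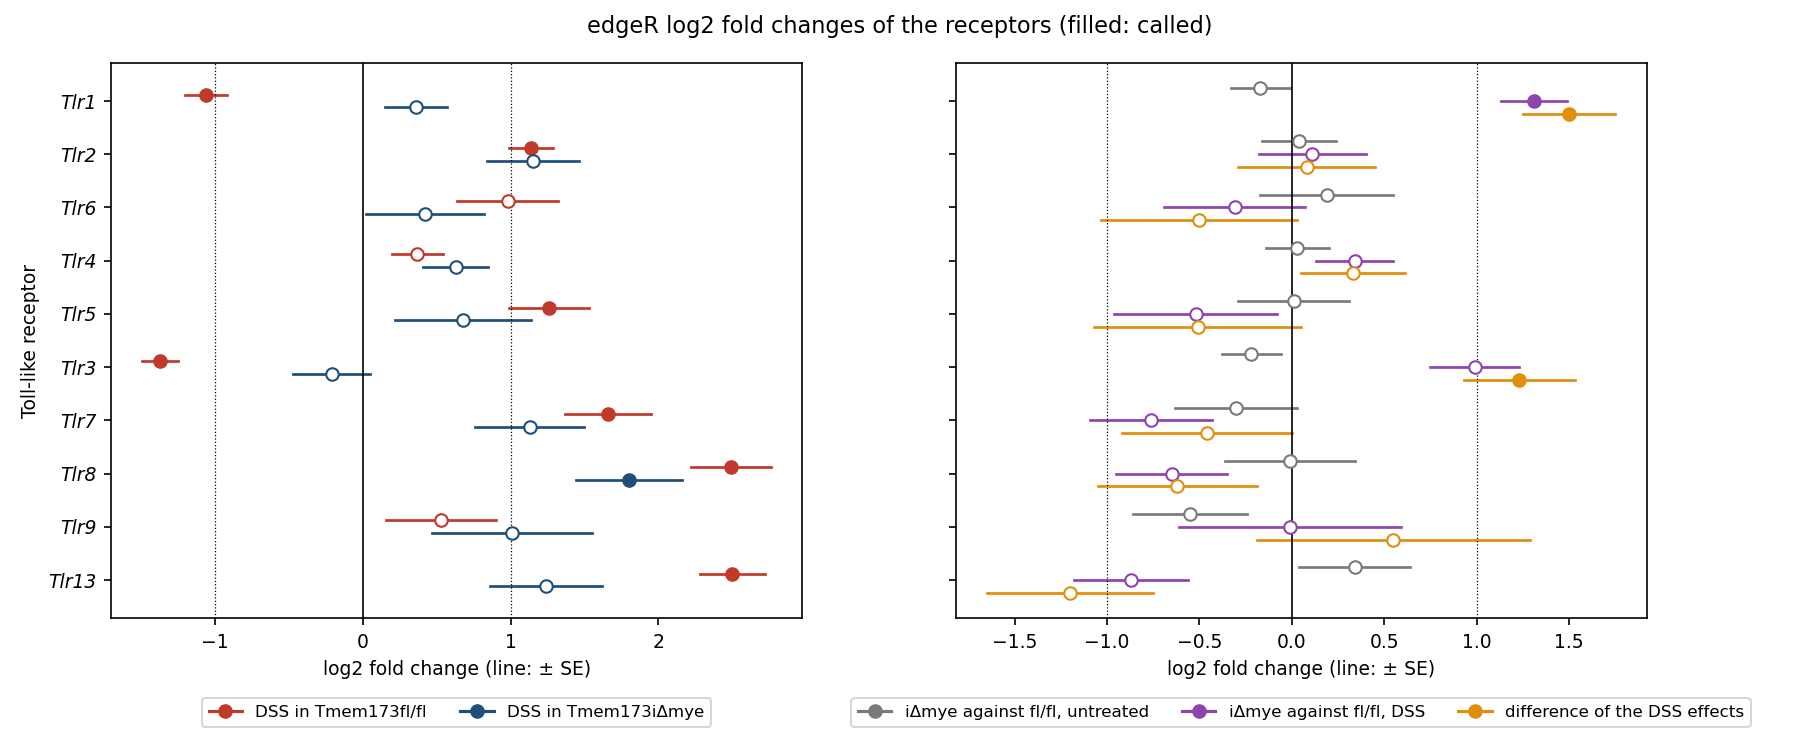
Log2 fold change (horizontal axis, with ± SE as a line) of each receptor (vertical axis) for DSS in each genotype on the left, and for the genotype with and without DSS and the difference of the DSS effects on the right. Filled points were called and dotted lines mark the fold minimum. Tlr1 and Tlr3 lie left of 0 in Tmem173fl/fl mice at -1.06 and -1.37, and their difference of DSS effects lies at 1.5 and 1.23.

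Without DSS no receptor was called between the genotypes, and 0% of all genes tested were called. At an unadjusted p under 0.05, edgeR gave 0 of the 10 receptors and 2.99% of all genes, and DESeq2 and limma called 0 receptors and at most 0.0124% of all genes. The log2 differences (Tmem173iΔmye minus Tmem173fl/fl) ran from -0.55 ± 0.31 for Tlr9 to 0.34 ± 0.30 for Tlr13, and the library values of every receptor overlapped, where 3.66% of all genes were higher and 3.68% lower without overlap. The 95% intervals of the 4 receptors with the highest levels were -0.52 to 0.19 for Tlr1, -0.56 to 0.13 for Tlr3, -0.38 to 0.47 for Tlr2 and -0.33 to 0.39 for Tlr4.

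In colitic mice the genotypes were compared under DSS, as Tmem173iΔmye minus Tmem173fl/fl. The genotypes differ in the presence of Cre at the Lyz2 locus too, so an effect of myeloid STING deletion cannot be told apart from it. Among the colitic libraries, Tmem173iΔmye replicate 5 alone had high Xist counts. Tlr1 was called, 2.48-fold higher in Tmem173iΔmye colon (log2 1.31 ± 0.18, edgeR adjusted p = 0.0167). Calls were made for 1 of 10 receptors and for 2.81% of all genes tested, 0.822% higher and 1.99% lower. At an unadjusted p under 0.05 edgeR gave 4 receptors and 20.2% of all genes. The 3 Tmem173iΔmye libraries at 91.1, 134.5 and 121.4 CPM were all above the 3 Tmem173fl/fl libraries at 47.1, 43.7 and 48.2 CPM. Without Tmem173fl/fl replicate 1, 2 or 3 the adjusted p was 0.0851, 0.0558 or 0.0560, and without Tmem173iΔmye replicate 2 it was 0.0587, while the log2 difference stayed between 1.2 and 1.45. In the same order these leave-outs called 0.112%, 0.846%, 0.51% and 0.191% of all genes, against 2.81% with all libraries.

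Tlr3 differed in the same direction, with 55.6, 93.0 and 49.2 CPM in colitic Tmem173iΔmye against 33.5, 34.5 and 30.3 CPM in colitic Tmem173fl/fl colon. The groups did not overlap, but the log2 difference of 0.99 ± 0.24 missed both thresholds (edgeR adjusted p = 0.0663). It became a call without Tmem173iΔmye replicate 5 (log2 1.16, adjusted p = 0.0431), where 2.11% of all genes were called. Tlr7, Tlr8 and Tlr13 were lower in every colitic Tmem173iΔmye library than in any colitic Tmem173fl/fl library, at log2 -0.76 ± 0.33, -0.65 ± 0.30 and -0.87 ± 0.31, and none passed the edgeR test (adjusted p = 0.236, 0.273 and 0.162). Tlr13 became a call without Tmem173iΔmye replicate 1 (log2 -1.22, adjusted p = 0.0406), where 6.61% of all genes were called. Of all genes tested, 12% had such non-overlapping groups with higher values in Tmem173iΔmye and 14.8% with lower values. Tlr2, Tlr4, Tlr5, Tlr6 and Tlr9 overlapped, and their log2 differences lay between -0.52 ± 0.44 for Tlr5 and 0.34 ± 0.21 for Tlr4.

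Whether DSS acted differently in the 2 genotypes was tested directly by the interaction over all 12 libraries. The test called 2 of the 10 receptors, both with a positive difference, and 2.55% of all genes, 0.934% positive and 1.61% negative. At an unadjusted p under 0.05 it gave 3 receptors and 18.1% of all genes. For Tlr1, called lower with DSS in Tmem173fl/fl mice and not called in Tmem173iΔmye mice, the DSS effects differed by 1.5 ± 0.25 (log2, edgeR adjusted p = 0.00885). It kept its call without any 1 library, with adjusted p from 0.00198 to 0.0315. For Tlr3 the DSS effects differed by 1.23 ± 0.30 (edgeR adjusted p = 0.0479). That call was lost in 10 of 12 leave-outs, where the value lay between 0.90 and 1.33 and the adjusted p between 0.0672 and 0.120. These 10 leave-outs called 1.11% to 2.34% of all genes, against 2.55% with all libraries. Without the 3 libraries with Xist reads, an alternative chosen after seeing the data, Tlr1 was at 1.21 (adjusted p = 0.0722) and Tlr3 at 1.26 (adjusted p = 0.0829). There no receptor and 0.834% of all genes were called. Tlr13 had the most negative difference, at -1.2 ± 0.45 (edgeR adjusted p = 0.180). Tlr2 had nearly the same DSS effect in both genotypes, with a difference of 0.08 ± 0.37 and a 95% interval from -0.73 to 0.88, which leaves room for a change of over 1.5-fold either way.

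Markers of several cell types moved with DSS as well. Of 10 neutrophil markers all 10 rose in Tmem173fl/fl mice, from a sum of 47.5 to 106.9 CPM to 538.6 to 909.4 CPM, as did all 6 fibroblast markers, from 1179 to 1379 CPM to 7970 to 10150 CPM, and all 5 endothelial markers, where 14.9% of all genes tested rose. In Tmem173iΔmye mice, where 1.48% of all genes rose, 5 neutrophil, 1 fibroblast and no endothelial markers did. Between colitic genotypes 6 neutrophil, 5 fibroblast, 2 endothelial and 2 macrophage markers were called lower in Tmem173iΔmye colon and none was called higher, where 1.99% of all genes were called lower and 0.822% higher. Their part in the receptor values was not tested. Of 12 macrophage and monocyte markers 8 rose and none fell in Tmem173fl/fl mice, and their summed level was 286.8 to 371.6 CPM without DSS and 946.2 to 1305 CPM with DSS. In Tmem173iΔmye mice it was 304.8 to 376.4 CPM and 340.3 to 811.0 CPM, with 1 of 12 markers called. Relative to this sum, Tlr7 did not differ beyond the spread with DSS in Tmem173fl/fl mice (log2 difference of the ratio -0.14, exact permutation p = 0.7, two-sided). The ratio was higher by 0.71 for Tlr13, with groups that did not overlap (exact permutation p = 0.1, the smallest that 3 against 3 libraries can give), and by 0.72 for Tlr8 (exact permutation p = 0.2). It was lower without overlap for Tlr2 (-0.68), Tlr6 (-0.81), Tlr4 (-1.45), Tlr9 (-1.31), Tlr1 (-2.87) and Tlr3 (-3.19), and Tlr5 overlapped at -0.53. Relative to the neutrophil sum the Tlr13 and Tlr8 differences were both -0.74 with overlapping groups (exact permutation p = 0.2 and 0.3). That of Tlr7 was -1.60 without overlap (exact permutation p = 0.1). Taking the mean of the log2 neutrophil marker levels instead gave -3.74 for Tlr13, -3.73 for Tlr8 and -4.59 for Tlr7. None of these overlapped (exact permutation p = 0.1 for each), so the overlap of Tlr13 and Tlr8 depended on how the markers were combined. In untreated Tmem173fl/fl libraries 3 to 7 of the 10 neutrophil markers stood at 3 counts or fewer. In Tmem173iΔmye mice the macrophage ratio was higher with DSS by 1.10 for Tlr8 and 0.56 for Tlr13 and lower by 0.90 for Tlr3, each without overlap, and the other 7 receptors overlapped. Between colitic genotypes the ratio of Tlr13 was -5.25 ± 0.03 in Tmem173iΔmye and -5.31 ± 0.13 in Tmem173fl/fl colon (log2, mean ± SD, n = 3, difference 0.06, exact permutation p = 0.6). Those of Tlr8 and Tlr7 differed by 0.31 and 0.22 and overlapped. The ratio was higher in Tmem173iΔmye colon without overlap for Tlr2 (1.04), Tlr6 (0.66), Tlr4 (1.34), Tlr1 (2.31) and Tlr3 (1.96). For the macrophage ratios, the mean of the log2 marker levels in place of the sum gave a Tlr13 difference between colitic genotypes of -0.15. That of Tlr7 with DSS in Tmem173fl/fl mice was then 0.06, Tlr8 (0.92) no longer overlapped there and Tlr6 (-0.61) did. With DSS in Tmem173iΔmye mice Tlr2 (0.47) no longer overlapped. The part of macrophage numbers in the receptor values was not tested.

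Tlr1 and Tlr3 were set beside epithelial markers. Of 9 epithelial markers 6 fell and none rose with DSS in Tmem173fl/fl mice, their sum going from 14060 to 17620 CPM down to 5500 to 9463 CPM. It was 15020 to 17890 CPM in untreated and 11420 to 14300 CPM in colitic Tmem173iΔmye colon, with none of the 9 called and no overlap of the sums. The ratio of Tlr1 to the epithelial sum, a measure added after seeing the data, was 0.03 higher in colitic than in untreated Tmem173fl/fl libraries (log2, exact permutation p = 0.9), and that of Tlr3 differed by -0.29 (exact permutation p = 0.5). In Tmem173iΔmye mice the Tlr1 ratio was 0.69 higher with DSS and did not overlap the untreated one (exact permutation p = 0.1), and the Tlr3 ratio differed by 0.08 and overlapped (exact permutation p = 0.9). Between colitic genotypes the Tlr1 ratio was 0.44 higher in Tmem173iΔmye colon, also without overlap, and the Tlr3 ratio differed by 0.09 (exact permutation p = 0.7). The part of epithelial cells in the receptor values was not tested.

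Tlr9 was set beside 8 B cell markers, since B cells are a main site of its expression. Without DSS the B cell sum was 75.2 to 139.6 CPM in Tmem173fl/fl and 54.7 to 64.9 CPM in Tmem173iΔmye libraries, without overlap. The median log2 difference of the 8 markers there was -0.85, and none was called. In colitis the sum ranged from 33.0 to 192.2 CPM in Tmem173fl/fl and from 27.6 to 341.9 CPM in Tmem173iΔmye libraries. The library with the most Tlr9, colitic Tmem173iΔmye replicate 1 at 17.4 CPM, also held the 341.9 CPM. Colitic Tmem173iΔmye replicate 5 held 131.2 CPM of B cell markers and the lowest Tlr9 value of the series, 3.10 CPM. Replicate 2 of that group held 27.6 CPM of B cell markers and 5.41 CPM of Tlr9. The Tlr9 ratio to the sum did not separate colitic from untreated libraries in either genotype (log2 differences 0.57 and -0.23). The part of B cells in the Tlr9 values was not tested.

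**Figure D4:**
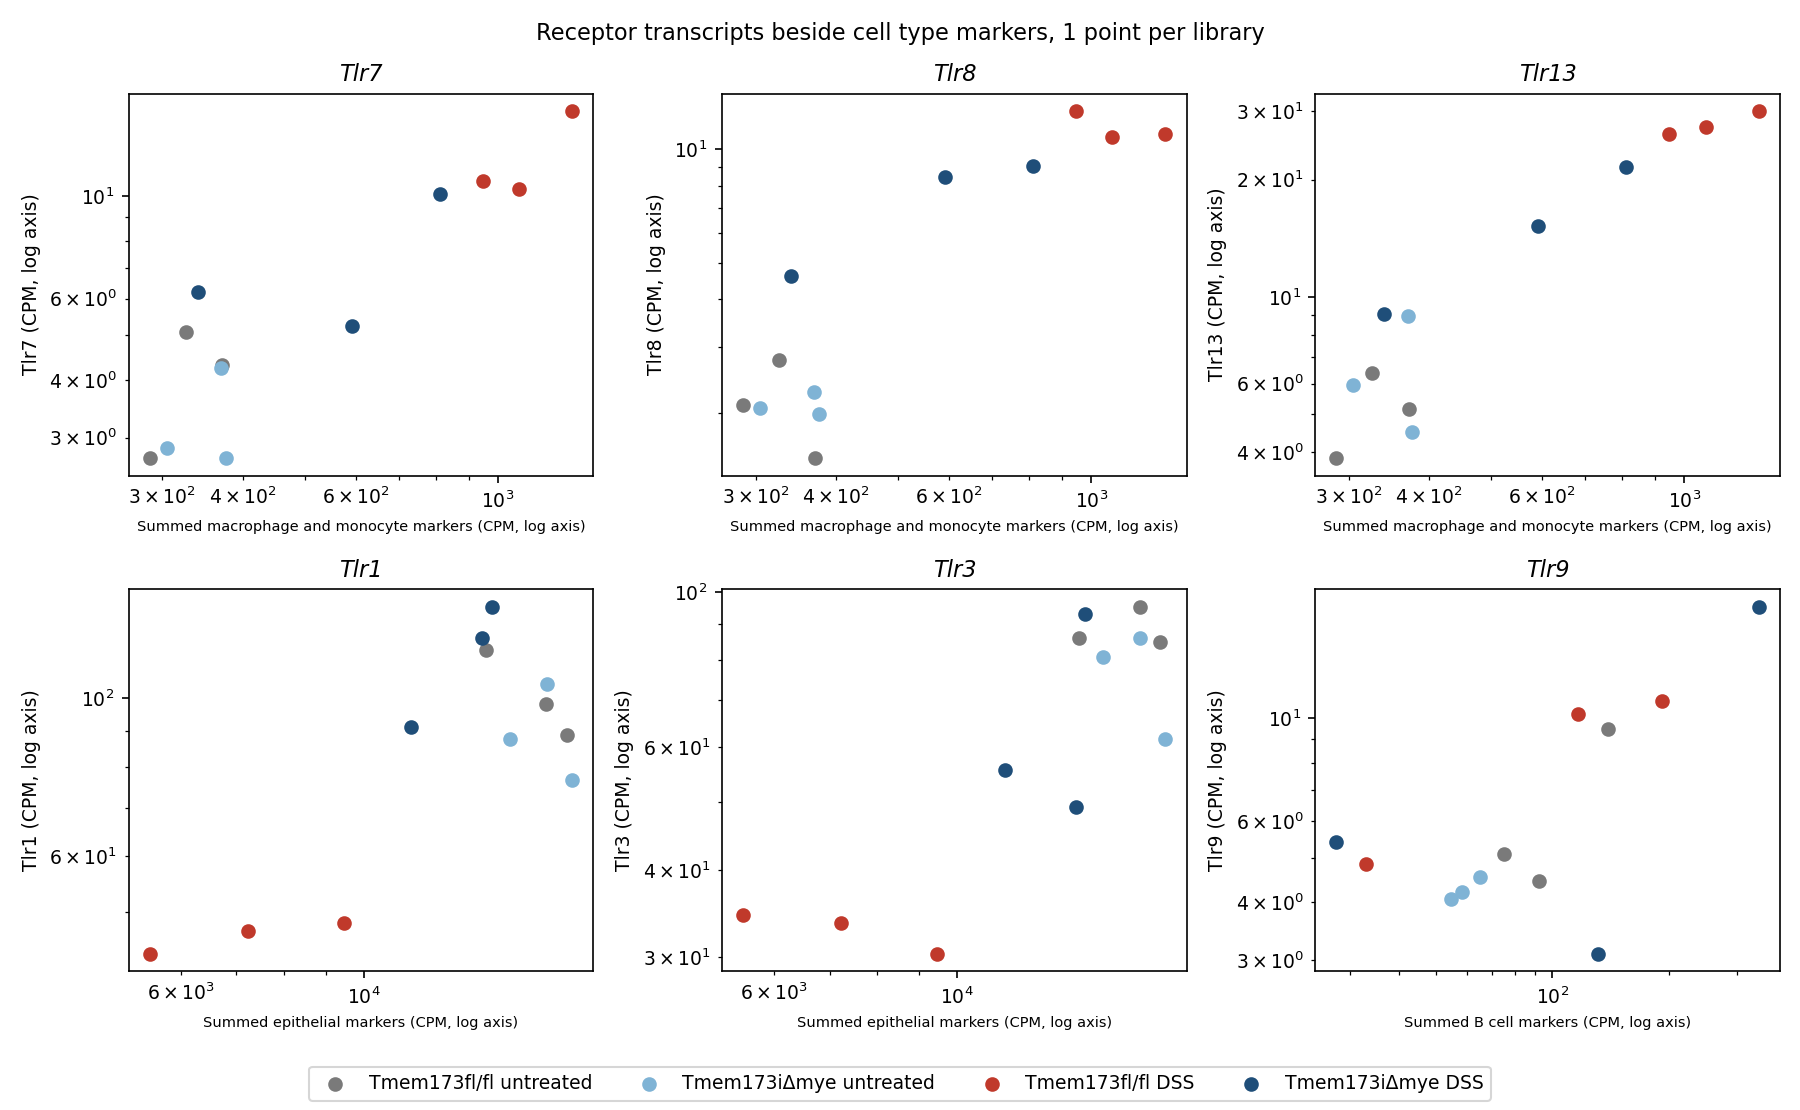
Level of 6 receptors (vertical axes, CPM on a log axis) against the summed level of cell type markers in the same library (horizontal axes, CPM on a log axis), 1 point per library. The colitic Tmem173fl/fl libraries lie at 946.2 to 1305 CPM of macrophage markers and 5500 to 9463 CPM of epithelial markers, apart from all untreated libraries.

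The signalling genes around the receptors were examined with 52 genes in 5 lists. Of 10 co-receptors and accessory proteins, 3 rose with DSS in Tmem173fl/fl mice and none fell, where 14.9% of all genes tested were called higher and 7.61% lower. Lbp, the plasma protein that hands lipopolysaccharide to CD14, went from 4.70, 2.30 and 6.89 CPM to 69.0, 89.1 and 66.9 CPM (log2 4.08 ± 0.33, edgeR adjusted p = 1.56e-05). Cd14, the lipopolysaccharide co-receptor, rose by 1.17 ± 0.18 and Cd36, a co-receptor of TLR2 with TLR6, by 1.33 ± 0.37. Ly96, the gene of MD-2, was at -0.26 ± 0.29, and Unc93b1, the chaperone that carries the nucleic acid receptors to endosomes, at 0.24 ± 0.19. The list's median log2 fold change was 0.08. In Tmem173iΔmye mice Lbp alone of the 10 was called, from 3.94, 5.63 and 6.43 CPM to 63.4, 31.9 and 41.8 CPM (log2 3.09 ± 0.32, edgeR adjusted p = 0.00146).

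None of 6 adaptors was called in any of the 5 comparisons, in which 22.5% (DSS in Tmem173fl/fl), 2.08% (DSS in Tmem173iΔmye), 0% and 2.81% (genotype without and with DSS) and 2.55% (interaction) of all genes were. Myd88, used by all the receptors but TLR3, was at 0.25 ± 0.15 with DSS in Tmem173fl/fl mice. Ticam1, the gene of TRIF, was at -0.31 ± 0.16. Of 16 kinases and ubiquitin ligases, Peli1, a ubiquitin ligase of the pathway, was the one called in any of them, with a lower level under DSS in Tmem173fl/fl mice (log2 -1.03 ± 0.13, edgeR adjusted p = 0.000192).

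Of 12 negative regulators 4 rose with DSS in Tmem173fl/fl mice and none fell, against the same 14.9% and 7.61% of all genes, and the median over the list was 0.19. Irak3, the inhibitory kinase-like protein of macrophages, went from 5.83, 9.27 and 8.20 CPM to 39.4, 47.1 and 35.4 CPM (log2 2.45 ± 0.21, edgeR adjusted p = 1.89e-05). Dusp1, the phosphatase that ends p38 signalling, went from 24.6, 26.7 and 29.3 CPM to 252.3, 181.0 and 189.7 CPM (log2 3.02 ± 0.17, edgeR adjusted p = 2.09e-06). Il1rl1, the receptor for IL-33 and itself a sink for pathway adaptors, rose by 5.32 ± 0.57 over a wide range of 87.3 to 525.0 CPM, and Nfkbia, the inhibitor of NF-kappaB, was the fourth. In Tmem173iΔmye mice Il1rl1 (log2 2.52 ± 0.42, edgeR adjusted p = 0.0169) and Tnip3, a partner of A20 (1.33 ± 0.25, adjusted p = 0.0264), were the 2 of 12 called, both higher, where 1.48% of all genes were. Tnfaip3, which encodes A20, was at 0.20 ± 0.20 in Tmem173fl/fl mice.

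Between colitic genotypes 3 of the 12 negative regulators were called, 1 higher and 2 lower, where 0.822% of all genes tested were called higher and 1.99% lower. Irak3 was lower in Tmem173iΔmye colon at 21.6, 16.0 and 11.7 CPM (log2 -1.31 ± 0.26, edgeR adjusted p = 0.0364), and so was Dusp1 at 86.7, 48.8 and 54.8 CPM (log2 -1.71 ± 0.27, adjusted p = 0.0202). Tnip3 was higher, at 58.4, 48.5 and 86.8 CPM against 19.2, 8.24 and 18.3 CPM (log2 2.08 ± 0.35, edgeR adjusted p = 0.0262). The interaction called Tnip3 at 2.46 ± 0.52 and Dusp1 at -1.83 ± 0.38 (edgeR adjusted p = 0.0244 and 0.0248).

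Of 8 transcription factors downstream of the receptors 1 rose and 1 fell with DSS in Tmem173fl/fl mice, a share near the 14.9% and 7.61% of all genes. Irf5, which acts with MyD88, rose (log2 1.33 ± 0.28). Irf7, the interferon regulator downstream of TLR7 and TLR9, fell from 656.0, 378.3 and 237.6 CPM to 38.9, 96.4 and 45.3 CPM (log2 -2.74 ± 0.42, edgeR adjusted p = 0.00076). It also fell in Tmem173iΔmye mice, from 313.9, 384.8 and 417.0 CPM to 127.5, 155.8 and 96.4 CPM (log2 -1.56 ± 0.23, edgeR adjusted p = 0.0110). Irf7 thus fell while Tlr7, upstream of it, was higher in every colitic library.

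Pearson's r of log2 CPM across the 12 libraries was between 0.60 and 0.96 in the 15 pairs among Tlr2, Tlr5, Tlr6, Tlr7, Tlr8 and Tlr13, with the highest value for Tlr8 and Tlr13. Tlr1 and Tlr3 correlated with each other at 0.83 and with these 6 genes at -0.60 to -0.28 for Tlr1 and -0.80 to -0.46 for Tlr3. Tlr4 correlated with the same 6 genes at 0.41 to 0.81, with Tlr1 at 0.16 and with Tlr3 at -0.15. Tlr9 reached 0.58 with Tlr7 at most. The points share the DSS contrast and the cell makeup of the tissue, so these values describe these libraries.

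**Figure D5:**
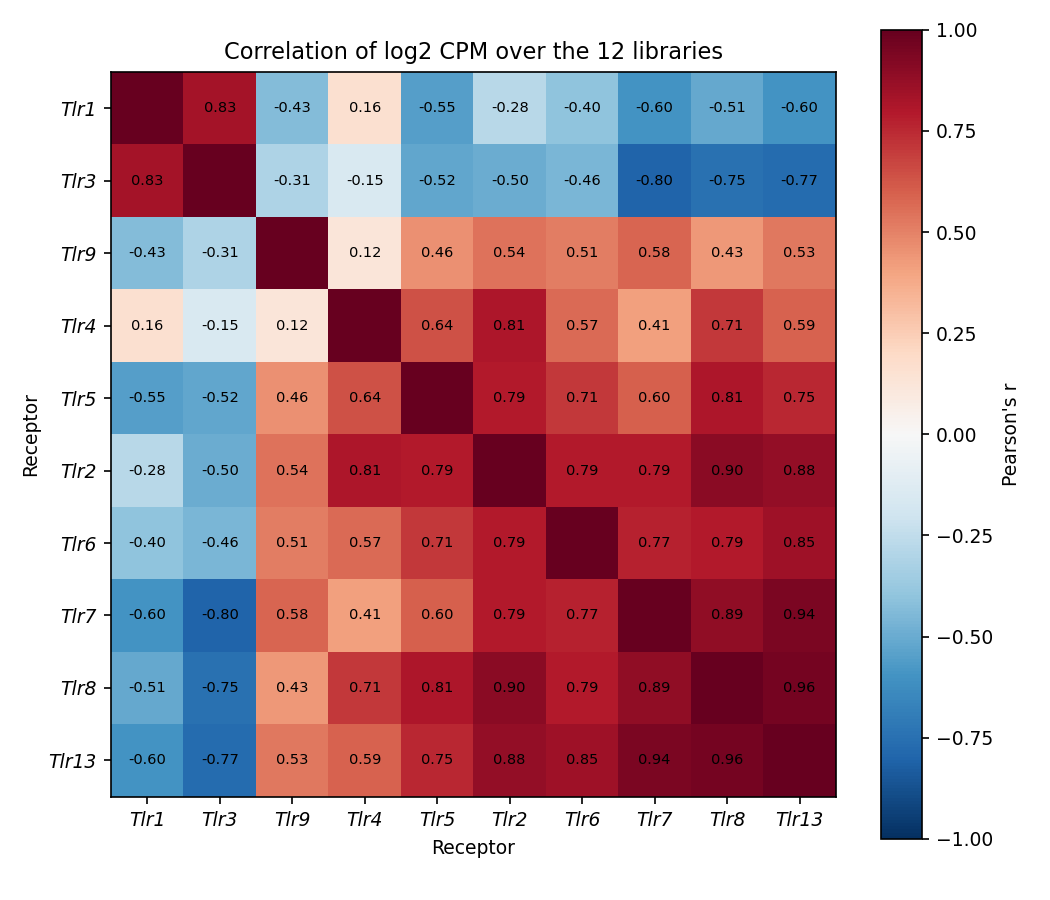
Pearson's r of log2 CPM between receptors over the 12 libraries, with receptors on both axes and colour and numbers giving r. Tlr7, Tlr8 and Tlr13 correlate with each other at 0.89 to 0.96 and with Tlr3 at -0.80 to -0.75.

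Among 14558 candidate genes with a mean FPKM of at least 1, the closest in pattern to Tlr8 were Cd33, a sialic acid receptor of myeloid cells (r = 0.99), Ccl11 (0.98) and Olfml2b (0.98). Those closest to Tlr13 were Cxcl12 (0.99), the chemokine receptor gene Ccr1 (0.98) and Maml2 (0.98), and those closest to Tlr7 were Apba1 (0.98), Tmem8b (0.97) and Nsg2 (0.97). Tlr3 was nearest to Me2 (0.98), H2-Q2 (0.97) and Fgd4 (0.97), and Tlr1 to Mllt3, Ppp1r12a and 1300002E11Rik (all 0.96). For Tlr2 they were Osr2, March1 and Kctd12 (all 0.94), for Tlr4 Appl1 (0.98), Tifa and Nr1h4 (both 0.92), and for Tlr5 Slc39a1 (0.96), Cdc42bpa and Atxn7l1 (both 0.95). Tlr9 was nearest to Plcg2 (0.95), Arhgap45 and Cyfip2 (both 0.94). The nearest genes to Tlr6 included the pancreatic genes Pnliprp2 (0.93) and Reg3d (0.92), besides Gm47015 (0.90).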

How the data were processed

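Polyadenylated RNA of whole mouse colon was sequenced from 12 mice in 4 groups of 3. According to the submitters' processing notes, CASAVA 1.8, fastp, HISAT2 2.0.5, featureCounts 1.5.0-p3 and DESeq2 1.20.0 were used on GRCm38, and the use of strand is not given in the sources used here. The authors deposited whole-number counts per gene and FPKM values for each library, along with group means, log2 fold changes and p-values of their own comparisons, which were not used. The deposited FPKM values were taken as they stand for levels between genes, and 1 further constant per library, 0.892 to 1.04, separates them from counts divided by length and library total.

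Counts were tested with edgeR 4.0.16 in R 4.3.3 (TMM scaling, quasi-likelihood test, Benjamini-Hochberg adjustment over the 24102 genes that reached 0.1 FPKM in 3 or more libraries). Fits held the 2 groups compared, and the interaction held all 12 libraries. Calls needed an adjusted p under 0.05 together with a 2-fold difference or more (log2 of 1). The SE was the log2 fold change divided by the square root of F, and 95% intervals used the t quantile at the degrees of freedom of the test (8.66 to 13.7). Marker ratios were compared with two-sided exact permutation tests over libraries. The p-values measure the spread between libraries of separate mice. Alternatives were DESeq2 1.42.0 and its size factors, limma 3.58.1 on log2(FPKM + 0.1) and log2(FPKM + 1), other filters, 1 fit of all libraries, a replicate block, call rules and leaving out libraries. Named are all 10 receptors, Tmem173 and Lyz2, up to 3 called genes per pathway list and comparison with the largest change, and the 3 genes most correlated with each receptor. Further pathway genes were named after their values were seen. Names came from the table, and 1 symbol altered to a date was restored from its identifier. The scripts were tested on simulated data. Members and gene lists were chosen with earlier results of these data known.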

Additional observations from a re-analysis of the deposited data

Results flagged for a closer look

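The effect of DSS on Tlr1 differed between the genotypes: the log2 change in Tmem173iΔmye mice minus that in Tmem173fl/fl mice was 1.5 ± 0.25 (edgeR adjusted p = 0.00885), with changes of 0.36 ± 0.21 and -1.06 ± 0.14. For Tlr3 the same difference was 1.23 ± 0.30 (edgeR adjusted p = 0.0479), with changes of -0.21 ± 0.26 and -1.37 ± 0.12. The cause of either difference was not tested.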

How the results depend on the processing

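The 7 calls with DSS in Tmem173fl/fl mice numbered 6 to 8 under the alternatives tried (6 with limma on log2(FPKM + 1), where Tlr5 was at 0.72), and no receptor was called between untreated genotypes under any of them. The share of all genes called in Tmem173fl/fl mice was 22.5% in the main test. It was 11.8% with limma on log2(FPKM + 1) and 35.4% by adjusted p alone. In Tmem173iΔmye mice with DSS the 1 call became 4 with DESeq2 and with an unadjusted p, 3 without a filter, in 1 fit of all libraries and with the replicate block, 2 without the libraries with Xist reads, 0 with limma at either pseudocount, and 0 to 3 without 1 library. The share of all genes called moved as well, from 2.08% to 4.72% with DESeq2 and 9.1% with an unadjusted p. It was 2.95% without a filter, 4.07% in 1 fit and 5.68% with the replicate block. Without the libraries with Xist reads it was 2.59%, with limma 0.17% and 0.307%, and without 1 library 0.212% to 6.09%. Between colitic genotypes the 1 call became 2 with DESeq2, in 1 fit of all libraries and without the libraries with Xist reads, 0 with limma on log2(FPKM + 0.1), and 0 to 2 without 1 library. Here the share of all genes called went from 2.81% to 6.72% with DESeq2 and 6.19% in 1 fit. Without the libraries with Xist reads it was 2.11%, with limma on log2(FPKM + 0.1) 0.295%, and without 1 library 0.112% to 6.61%. The 2 interaction calls became 1 with DESeq2 size factors and with limma at either pseudocount, 0 without the libraries with Xist reads, and 1 to 3 without 1 library. Its share of all genes called was 2.55% in the main test, 2.6% with DESeq2 size factors, and 1.53% and 2.66% with limma. Without the libraries with Xist reads it was 0.834%, and without 1 library 1.11% to 7.17%. The cause of these shifts in calls was not tested. The alternative without the libraries with Xist reads and the epithelial ratio were chosen after seeing the data.

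The differences that changed sign or came to 0 were all uncalled. Between untreated genotypes Tlr8 (-0.01) was 0.02 and 0 with limma, 0.02 with the replicate block and 0.27 without the libraries with Xist reads, where Tlr1 was 0.05, Tlr5 -0.09 and Tlr7 0.03, and Tlr5 was 0 in 1 fit of all libraries. Without 1 library the ranges were -0.12 to 0.21 for Tlr2, -0.09 to 0.15 for Tlr4, -0.19 to 0.20 for Tlr5 and -0.20 to 0.23 for Tlr8. Between colitic genotypes Tlr9 was 0.02 with DESeq2 size factors, 0.03 with DESeq2 and 0.39 without the libraries with Xist reads, Tlr2 was 0 with limma on log2(FPKM + 0.1) and Tlr5 0 with the replicate block, and without 1 library Tlr9 ran from -1.05 to 0.39 and Tlr2 from -0.07 to 0.39. In the interaction Tlr2 was -0.03 and -0.02 with limma and -0.01 with an FPKM minimum of 1, and ran from -0.12 to 0.35 without 1 library, and Tlr9 from -0.46 to 0.94. With DSS in Tmem173iΔmye mice Tlr9 ran from -0.01 to 1.45. The Tlr13 ratio to macrophage markers between colitic genotypes was -0.15 with the mean of log2 CPM.

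Same-numbered libraries did not deviate together (r from -0.12 to 0.13). The replicate numbers thus gave no sign of pairing, though with 3 libraries per group this cannot exclude it. With the replicate block 7 receptors were called with DSS in Tmem173fl/fl and 3 in Tmem173iΔmye mice, 0 and 1 between genotypes without and with DSS, and 2 in the interaction. In the same order 20.5%, 5.68%, 0.39%, 3.52% and 2.45% of all genes were called. Tlr8 rests on as few as 20 and Tlr6 on as few as 25 counts in a library, which limits their precision.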

Other observations

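The table holds 2 further receptor genes of the mouse, Tlr11 and Tlr12, which bind profilin of protozoa and were looked at after the others. Tlr12 stood at 6.82, 6.50 and 6.64 CPM in untreated Tmem173fl/fl colon and at 2.06, 5.30 and 1.91 CPM in colitic Tmem173fl/fl colon (log2 -1.02 ± 0.38, edgeR adjusted p = 0.0641). Tlr12 was not called, and each colitic library lay below each untreated one, as in Tlr1, Tlr3 and 25.4% of all genes tested. In Tmem173iΔmye colon it was at 6.74, 6.11 and 6.43 CPM without DSS and 10.6, 5.29 and 1.58 CPM with DSS (log2 -0.15 ± 0.53, edgeR adjusted p = 0.928).

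Tlr11 had 0 to 9 counts in the colitic Tmem173fl/fl libraries and 73, 41 and 4 counts in the colitic Tmem173iΔmye libraries. The log2 difference between them was 3.49 ± 1.10 and did not pass the edgeR test (adjusted p = 0.127), with replicate 5 of the Tmem173iΔmye group inside the range of the other group.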
